A study of Mus musculus with 6 samples.

Results

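Rag1, Rag2 and Dntt encode the V(D)J recombinase and terminal deoxynucleotidyl transferase (TdT), and their RNA was followed across the stages of Eμ-Myc lymphomagenesis in mouse pre-B cells. The genes were selected by symbol, through the Ensembl identifiers of the count files and the GENCODE vM1 annotation of mm9, and are 3 of the 37991 genes listed in each file. Poly(A) RNA was sequenced in 6 libraries, 2 for each of wild type, premalignant, and malignant cells, all from the bone marrow of C57BL/6 mice. Mice of 4 to 6 weeks gave the wild type cells, without the transgene, and the premalignant cells, from animals heterozygous for it (E{mu}Myc/+), and malignant mice were E{mu}Myc/+ animals of 10 to 20 weeks that had developed lymphoma spontaneously. The Eμ-Myc transgene places Myc under the immunoglobulin heavy chain enhancer, which drives it in cells of the B lineage. The labels give 1 sort for all stages, high B220 with low IgM and low IgD, while the study's methods give it for wild type and premalignant cells, where it holds both progenitor B (pro-B) and precursor B (pre-B) cells, and describe the malignant cells as transformed pre-B cells positive for B220 and negative for IgM and IgD. The study's methods name wild-type littermates as controls, female mice for the wild type and premalignant stages and mice of both sexes for the malignant stage, in which each lymphoma may be an expanded clone. Age, sex, tumor and possibly the gate therefore differ together between the malignant and the earlier stages and cannot be told apart. The study describes individual animals as its biological replicates.

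The RAG1 and RAG2 proteins form the endonuclease that recognises recombination signal sequences beside the V, D and J segments of antigen receptor genes and cuts the DNA there, with the catalytic residues in RAG1. The broken ends are joined by non-homologous end joining, and TdT, the product of Dntt, adds nucleotides without a template at the junctions before they are sealed. In the B lineage the genes are known for expression in pro-B cells, which rearrange the heavy chain, and Rag1 and Rag2 again in small pre-B cells, which rearrange the light chain, while thymocytes use the same genes for the T cell receptor.

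Rag1 (ENSMUSG00000061311) lies at chr2:101478439-101489658 on the minus strand of mm9 and Rag2 (ENSMUSG00000032864) at chr2:101464875-101472685 on the plus strand, so that the genes are read towards each other with 5753 bases between their 3′ ends. Dntt (ENSMUSG00000025014) lies on another chromosome, at chr19:41103765-41134013 on the plus strand. The annotated exons sum to 6608 bases for Rag1, 3423 for Rag2 and 2128 for Dntt. Since all 3 genes were lower at each later stage, although their profiles differed, the 250 bases before the annotated start of each gene are shown, taken from RefSeq on GRCm38.p6, a different build from that of the counts. Capitals mark exact matches, on either strand, to a short set of motifs.

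Rag1, chr2:101649533-101649782, minus strand: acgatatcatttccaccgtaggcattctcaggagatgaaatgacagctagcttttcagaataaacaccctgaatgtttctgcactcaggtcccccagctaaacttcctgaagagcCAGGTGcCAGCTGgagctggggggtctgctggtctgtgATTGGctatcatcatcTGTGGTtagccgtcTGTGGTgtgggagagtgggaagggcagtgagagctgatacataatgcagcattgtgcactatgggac

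Rag2, chr2:101624462-101624711, plus strand: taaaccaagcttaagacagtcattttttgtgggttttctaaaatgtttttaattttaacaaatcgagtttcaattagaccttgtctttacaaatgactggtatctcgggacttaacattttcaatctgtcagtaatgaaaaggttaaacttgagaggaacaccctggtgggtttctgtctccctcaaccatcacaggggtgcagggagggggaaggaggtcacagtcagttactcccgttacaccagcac

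Dntt, chr19:41029025-41029274, plus strand: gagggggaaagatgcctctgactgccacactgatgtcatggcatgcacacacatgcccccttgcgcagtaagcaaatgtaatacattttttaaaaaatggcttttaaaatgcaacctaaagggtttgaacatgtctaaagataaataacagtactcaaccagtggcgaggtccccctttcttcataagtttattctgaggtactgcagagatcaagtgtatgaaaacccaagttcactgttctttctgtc

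The motifs searched were the Myc-Max E-box CACGTG, the E-protein E-boxes CAGCTG and CAGGTG, the Runx core TGTGGT, the Fox core GTAAACA and the CCAAT box. The Rag1 window held CAGGTG and CAGCTG at positions -135 and -128 from the start, a CCAAT box read on the opposite strand at -97 and the Runx core at -81 and -67. No match stood in the Rag2 or the Dntt window, and neither CACGTG nor GTAAACA in any of the 3. Among 32851 windows of the same length from all genes, 17.2% held CAGGTG, 13.0% CAGCTG, 33.8% the CCAAT box, 14.0% the Runx core, 6.02% CACGTG and 3.17% GTAAACA. A match is a run of letters and not a measured binding site.

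Total counts lay between 30031100 and 53453055 per library, with the replicate 1 library the deeper at every stage. Levels are given as CPM (counts per 1000000 counts of a library size scaled by TMM) and, where genes are compared with each other, as RPKM (CPM per kilobase of annotated exon). Myc, the targeted gene, stood at 33.8 and 41.4 CPM in wild type, 1164 and 1155 CPM in premalignant, and 1732 and 1578 CPM in malignant cells, so the transgenic libraries were those labelled so. The B-lineage markers Cd79a and Cd79b, which encode the signalling chains of the B cell receptor, lay between 616 and 1480 CPM in all 6 libraries. Both were lower in every premalignant and malignant library than in either wild type library. With 2 libraries a stage, an exact permutation test cannot give a two-sided p below 0.333, so tests were read from edgeR's quasi-likelihood fit over all genes, and a gene was called where its Benjamini-Hochberg adjusted p did not exceed 0.1 and its log2 fold change was 0.5 or more in either direction, which are the cut-offs that the study applied.

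Rag1, which encodes the subunit that binds the recombination signals and cuts, was among the most abundant RNAs of wild-type cells. In wild type its level was 1945 CPM in replicate 1 and 1798 CPM in replicate 2. These were ranks 14 and 16 among the 16683 genes tested by CPM, which does not allow for gene length. By RPKM it ranked 113 and 128. Premalignant cells held 329 and 286 CPM of Rag1, and malignant cells held 154 and 56.8 CPM. The stages did not overlap, and the malignant libraries differed from each other 2.71-fold. Here and for the other genes, the share of all genes without such overlap is not given. The stage means were 1871 ± 104 CPM in wild type, 307 ± 30.2 CPM in premalignant and 105 ± 68.7 CPM in malignant cells (SD, n = 2 each).

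Rag2, whose product is the essential partner of RAG1 and reads a histone mark of active chromatin, started from a lower level. It stood at 153 and 81.7 CPM in wild type, at 44.8 and 43.4 CPM in premalignant, and at 25.7 and 8.64 CPM in malignant cells. The stages again did not overlap. The spread within wild type (1.87-fold) and within malignant cells (2.97-fold) was wide, and the premalignant libraries were nearly equal, so that the stage means were 118 ± 50.5, 44.1 ± 0.98 and 17.1 ± 12.0 CPM (SD, n = 2 each).

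Dntt, the gene of TdT, stood at 264 and 221 CPM in wild type cells and at 21.3 and 10.8 CPM in premalignant cells. In the malignant libraries it was at 0.105 CPM in replicate 1 and 6.70 CPM in replicate 2. The value of replicate 1 rests on 5 counts, with an exact Poisson 95% interval of 0.0340 to 0.244 CPM that covers counting error only, and replicate 2 rests on 187 counts with an interval of 5.78 to 7.74 CPM. The stages did not overlap, and the malignant libraries stood 64.1-fold apart, far beyond counting error, so that their mean of 3.40 ± 4.67 CPM (SD, n = 2) describes neither of them. In bulk RNA, fewer cells that express a gene and less RNA per cell cannot be told apart.

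**Figure D1:**
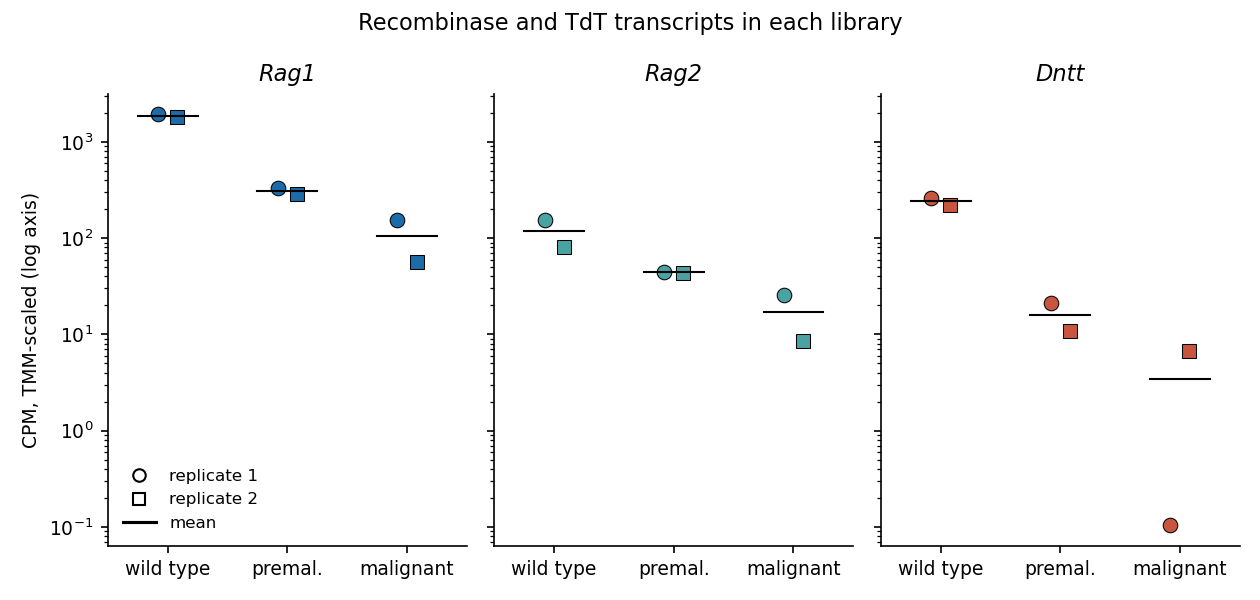
Level of Rag1, Rag2 and Dntt in each of the 6 libraries, in CPM on a log axis, with circles for replicate 1, squares for replicate 2 and a bar at the mean of each stage. All 3 genes fall from wild type to premalignant cells without overlap, and the malignant libraries lie far apart for Dntt (0.105 and 6.70 CPM).

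The comparison of premalignant with wild type cells asks what accompanies the Myc transgene before transformation. All 3 genes were called lower, beside 20.3% of all 16683 genes called lower and 39.3% called in either direction, so that a call alone is common among the genes tested. Rag1 had a log2 fold change of -2.61 ± 0.45 (SE), 6.09-fold lower, with an edgeR adjusted p of 0.00947. Dntt had the greatest change of the 3, a log2 fold change of -3.91 ± 1.22 (edgeR adjusted p = 0.0535), 15.1-fold lower. Rag2 fell by 1.41 ± 0.52 (edgeR adjusted p = 0.0838), 2.66-fold.

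By size of fall among all genes tested, Dntt ranked 252, Rag1 873 and Rag2 2366, while the median log2 fold change over all genes was -0.08. The premalignant library was the lower of the same-numbered libraries in every case, with log2 differences of -2.57 and -2.65 for Rag1, -1.77 and -0.91 for Rag2 and -3.63 and -4.35 for Dntt in replicates 1 and 2. The calls of Rag2 and Dntt were lost when any 1 of the wild type or premalignant libraries was left out, and that of Rag1 was kept. The fit estimates the spread of each gene over all 3 stages. The 64.1-fold gap between the malignant Dntt libraries therefore also enters this test of Dntt.

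The comparison of malignant with premalignant cells asks what changes on transformation. None of the 3 genes was called by edgeR, beside 2.45% of all genes called lower and 6.18% called in either direction. For each of the 3, every malignant library lay below every premalignant library. The share of all genes that stand apart in this way is not given here, so this is a description and not a test. The log2 fold changes were -1.54 for Rag1 (95% interval -2.59 to -0.49, edgeR adjusted p = 0.129), -1.35 for Rag2 (-2.62 to -0.09, adjusted p = 0.223) and -2.32 for Dntt (-5.24 to 0.60, adjusted p = 0.351). At an unadjusted p under 0.05, edgeR gave 2 of the 3, Rag1 and Rag2, and DESeq2 called the same 2 genes (log2 fold changes of -1.58 and -1.40). Over all genes 3313 of 16683 had an unadjusted edgeR p under 0.05, and DESeq2 called 2186. Within replicates the malignant library was the lower in all cases, with log2 differences of -1.09 and -2.33 for Rag1 and -0.80 and -2.33 for Rag2 in replicates 1 and 2. For Dntt the log2 differences were -7.67 and -0.69, a fall that rested almost wholly on replicate 1.

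The malignant library with the lower Dntt was not the one with the lower Rag genes: replicate 1 held more Rag1 and Rag2 and less Dntt than replicate 2. Leaving out malignant replicate 1 gave a log2 fold change from premalignant cells of -2.44 for Rag1 and -2.35 for Rag2, both called (edgeR adjusted p = 0.00144 and 0.0162), and -1.27 for Dntt, not called. Leaving out malignant replicate 2 gave -1.03 for Rag1 (adjusted p = 0.00678, called), -0.82 for Rag2 (not called) and -7.27 for Dntt (adjusted p = 0.00124, called). In these fits the lone malignant library is assumed to vary like the other stages.

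From wild type to malignant cells all 3 genes were called lower, beside 24.3% of all genes called lower and 49.2% called in either direction. The log2 fold change was -6.23 ± 1.38 (SE) for Dntt (edgeR adjusted p = 0.0137), 75.3-fold lower. It was -4.15 ± 0.48 for Rag1 (adjusted p = 0.00168), 17.7-fold lower, and -2.77 ± 0.54 for Rag2 (adjusted p = 0.00919), 6.81-fold lower. They ranked 158, 713 and 1496 by size of fall among the genes tested. The premalignant stage held 62.8% of the log2 change of Rag1, 51.1% of that of Rag2 and 62.8% of that of Dntt between wild type and malignant cells. These shares differed between replicates. For Rag2 the log2 differences of premalignant and malignant from wild type were -1.77 and -2.58 in replicate 1. In replicate 2 they were -0.91 and -3.24. For Rag1 they were -2.57 and -3.66 in replicate 1, and -2.65 and -4.99 in replicate 2. For Dntt the share rested on single malignant libraries. Its premalignant and malignant log2 fold changes from wild type were -3.85 and -11.1 without malignant replicate 2. Without malignant replicate 1 they were -3.90 and -5.17. This comparison shares its wild type and malignant libraries with the other comparisons and is not independent of them.

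**Figure D2:**
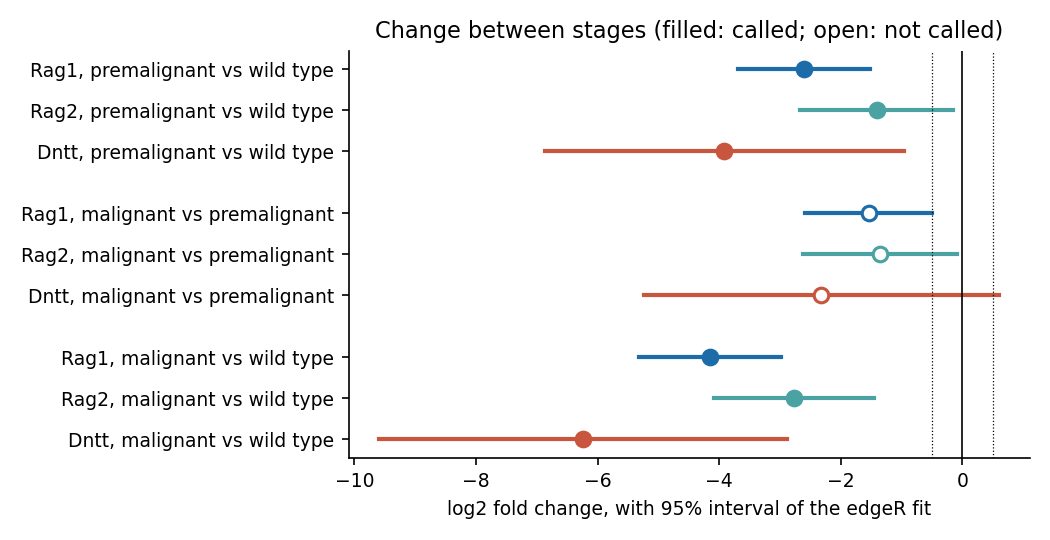
Log2 fold change of Rag1, Rag2 and Dntt in the 3 comparisons from edgeR's fit, with bars for the 95% interval and open symbols where a gene was not called. All 9 values are below 0, and the interval reaches 0 only for Dntt between malignant and premalignant cells (-5.24 to 0.60).

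Per length, the order of the genes differed between the stages. In wild type cells Rag1 was highest at 294 and 272 RPKM, followed by Dntt at 124 and 104 RPKM and Rag2 at 44.8 and 23.9 RPKM, with no overlap between neighbours. In premalignant cells Rag1 stood at 49.7 and 43.3 RPKM, Rag2 at 13.1 and 12.7 RPKM and Dntt at 9.98 and 5.07 RPKM, so that Rag2 and Dntt had changed places. In malignant cells Rag1 stayed first at 23.3 and 8.59 RPKM, while Rag2 (7.49 and 2.52 RPKM) and Dntt (0.0492 and 3.15 RPKM) overlapped.

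The subunits of the recombinase did not keep a fixed RNA ratio. Rag1 RNA per length was 6.58 and 11.4 times that of Rag2 in the wild type libraries, 3.80 and 3.41 times in the premalignant libraries and 3.11 and 3.40 times in the malignant libraries. The wild type libraries were thus above the other 4 and the later stages overlapped, with mean log2 ratios of 3.11 ± 0.56, 1.85 ± 0.11 and 1.70 ± 0.09 (SD, n = 2 each), and the difference between stages was not tested. The ratio of Rag1 to Dntt was 2.37 and 2.63 in wild type, 4.98 and 8.54 in premalignant, and 474 and 2.73 in malignant cells, so that malignant replicate 2 was close to the wild type libraries in this ratio and replicate 1 far from them.

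The genes with the most similar profiles over the 6 libraries were found among 8882 genes with a mean of at least 10 CPM, by the root mean square difference of the centred log2 profiles, as a description over samples that share their stage and depth. For Dntt the nearest was Igll1 (0.20, Pearson's r = 0.9992), and Vpreb1 was the third nearest (0.44, r = 0.9942); both encode the surrogate light chain of the pre-B cell receptor. Igll1 stood at 197, 195, 18.8, 9.58, 0.167 and 7.56 CPM in wild type, premalignant and malignant replicates 1 and 2, and Vpreb1 at 115, 131, 9.74, 4.88, 0.146 and 4.05 CPM. Both were thus, as Dntt was, lower in malignant replicate 1 than in replicate 2 by a wide margin. Gpr56 (0.27), Gfra1 (0.48) and Epb4.1l4b (0.65) completed the nearest 5.

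**Figure D3:**
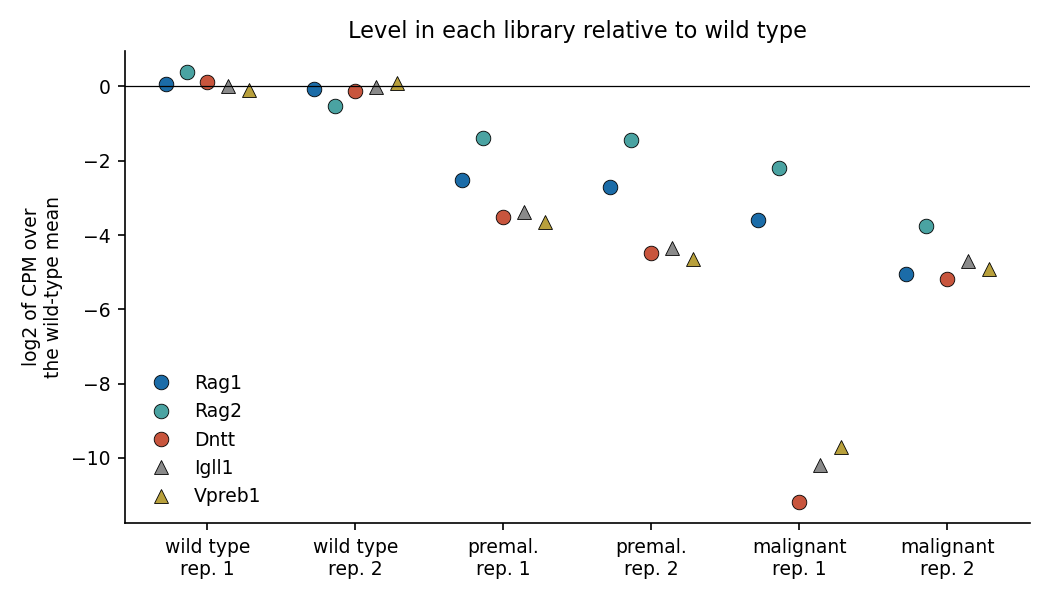
Log2 of the CPM of Rag1, Rag2, Dntt (circles), Igll1 and Vpreb1 (triangles) in each library over the mean CPM of the wild type libraries. Dntt, Igll1 and Vpreb1 drop together in malignant replicate 1, where Rag1 and Rag2 are higher than in malignant replicate 2.

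The profiles nearest to Rag1 were those of Atp1b1 (root mean square difference 0.30), a subunit of the sodium pump, Faim3 (0.32), Ddah2 (0.35), Cacna1e (0.39) and Kdm5b (0.41), a histone demethylase. Those nearest to Rag2 were Pyhin1 (0.23), Neil1 (0.39), a DNA glycosylase, Bach2 (0.40), a transcription factor of B cells, Pydc3 (0.45) and D17H6S56E-5 (0.45). The subunits were not each other's nearest: Rag2 was in place 31 for Rag1, Rag1 in place 108 for Rag2 (0.69, r = 0.9628), and Dntt in place 3224 for Rag1 and 8669 for Rag2.

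At the Rag locus, 4 other protein-coding genes lay within 250 kb. B230118H07Rik, whose span covers both Rag genes, shares 80 exon bases with Rag1 on the same strand and 208 with Rag2 on the opposite strand, and the library kit does not mark strand, so reads there cannot be assigned to 1 gene. It stood at 14.4, 18.4, 4.88, 6.09, 3.14 and 2.15 CPM in wild type, premalignant and malignant replicates 1 and 2, and was called lower in premalignant (log2 fold change -1.58, edgeR adjusted p = 0.0142) and malignant (-2.63, adjusted p = 0.00211) compared to wild type cells. Prr5l, which binds mTORC2, was also called lower against wild type in both stages (-2.49 and -3.15, edgeR adjusted p = 0.0193 and 0.00697), from a low mean level of 4.84 CPM. Traf6, a signalling ubiquitin ligase that is the nearest neighbour outside the overlap, and Commd9 were not called in any comparison, with log2 fold changes from wild type to malignant cells of -0.70 (95% interval -1.44 to 0.04) and 0.12 (-0.33 to 0.56).

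Within 250 kb of Dntt lay 7 protein-coding genes, of which 5 were tested, while Opalin and Tll2 were at or near 0 in all libraries. Blnk, the adaptor of the pre-B cell receptor, was called lower in premalignant (-1.06, edgeR adjusted p = 0.0042) and malignant (-1.34, adjusted p = 0.00123) compared to wild type cells. Pik3ap1, an adaptor for phosphoinositide 3-kinase in B cells, was called lower in premalignant (-1.73, edgeR adjusted p = 0.0028) and malignant (-2.87, adjusted p = 0.000628) compared to wild type cells. Pik3ap1 was also called lower in malignant compared to premalignant cells (-1.14, edgeR adjusted p = 0.0408). Ccnj, Zfp518a and Tm9sf3 were not called, so falls at this locus, as at the Rag locus, stood beside genes that passed no test.

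**Figure D4:**
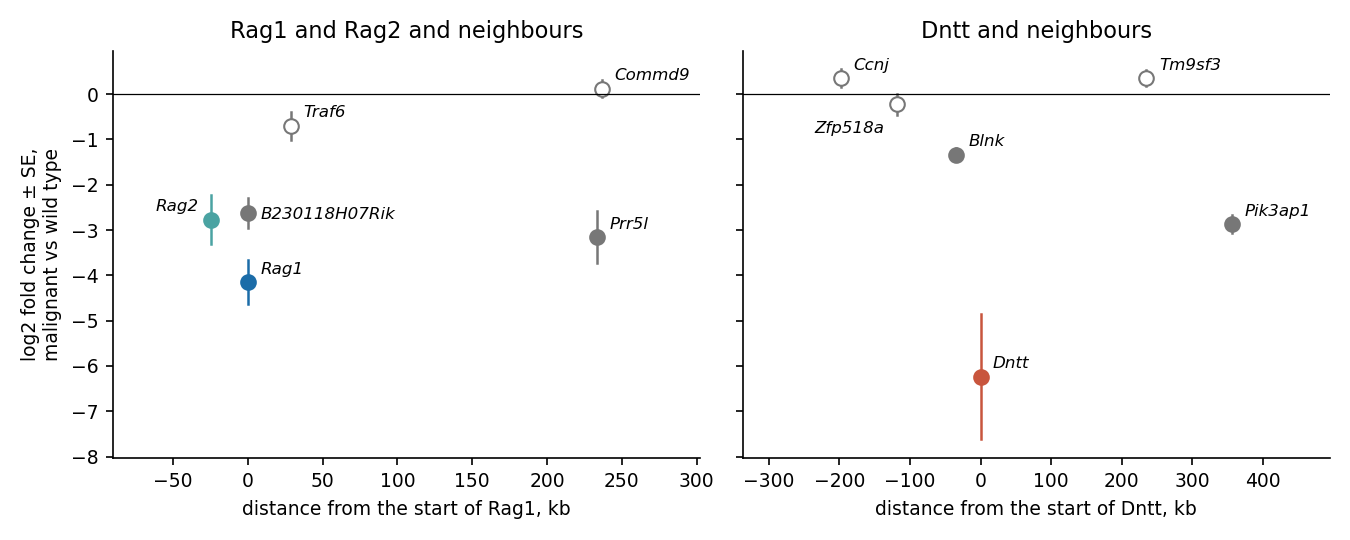
Log2 fold change with SE from wild type to malignant cells for Rag1, Rag2, Dntt and the tested protein-coding genes within 250 kb, against the distance of each gene's start from that of Rag1 or Dntt in kb, with open symbols for genes not called. At both loci called falls stand next to genes not called, such as Traf6 (-0.70) and Tm9sf3 (0.35).

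The cofactors of the recombinase and the end-joining genes did not move as 1 group. Of 12 listed genes 11 were matched and tested, and 4 were called lower and 2 higher in premalignant compared to wild type cells, beside 20.3% of all genes called lower and 39.3% called in either direction, with a median log2 fold change of -0.31 against -0.08 for all genes. In malignant compared to wild type cells 5 were called lower and 2 higher, beside 24.3% of all genes called lower and 49.2% called in either direction (median -0.33 against -0.02). Hmgb1, Prkdc and Nhej1 were not called in any comparison. Hmgb2, a DNA-bending protein that helps RAG bind, was called higher only in premalignant against wild type cells (0.59, edgeR adjusted p = 0.0442), and no test compared this with the other contrasts.

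The genes of the Ku heterodimer, which binds the broken ends, moved in opposite directions. Xrcc5 (Ku80) stood at 16.8, 15.8, 57.8, 65.3, 99.6 and 63.0 CPM in wild type, premalignant and malignant replicates 1 and 2, and Xrcc6 (Ku70) at 489, 537, 265, 265, 153 and 269 CPM. Every Myc-transgenic library was above wild type for Xrcc5 and below it for Xrcc6. From wild type to malignant cells the log2 fold changes were 2.32 for Xrcc5 (edgeR adjusted p = 0.0013) and -1.28 for Xrcc6 (adjusted p = 0.0108).

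Of the genes that process and seal the ends, Dclre1c (Artemis, which opens the hairpins that RAG leaves) stood at 80.1 and 99.7 CPM in wild type, 42.3 and 35.7 CPM in premalignant, and 28.8 and 23.2 CPM in malignant cells, a log2 fold change of -1.79 from wild type to malignant (edgeR adjusted p = 0.00145). Lig4, the ligase, stood at 155 and 110 CPM, 82.2 and 80.1 CPM, and 47.6 and 31.9 CPM in the same order. It was the only gene of these 11 called between malignant and premalignant cells (-1.03, adjusted p = 0.0955), beside 2.45% of all genes. Polm, the polymerase most related to TdT, had log2 fold changes of -1.57 in premalignant (edgeR adjusted p = 0.0951) and -1.58 in malignant cells (adjusted p = 0.0782) compared to wild type, while Poll, which fills gaps, rose by 1.41 from wild type to malignant cells (adjusted p = 0.0377). Xrcc4, the partner of the ligase, was called lower in malignant compared to wild type cells (-0.74, edgeR adjusted p = 0.0575).

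Against wild type each break sensing gene was either called higher or not called. Of 7 tested, Atm, the kinase that answers RAG breaks, Mre11a, Rad50 and Nbn were called higher in premalignant compared to wild type cells (log2 fold changes of 1.03, 0.54, 0.81 and 0.71), a list median of 0.54 against -0.08 for all genes, of which 3169 of 16683 were called higher. Atm, Rad50 and Nbn were called higher in malignant compared to wild type cells (0.66, 0.69 and 1.10). In this comparison 4153 of 16683 genes were called higher, and the list median was 0.27 against -0.02 for all genes. None was called by edgeR between malignant and premalignant cells, where 4 of the 7 had an unadjusted p under 0.05 and DESeq2 called 2. These 4 by edgeR were Atm (-0.37), H2afx (-0.72), Trp53bp1 (-0.40) and Mdc1 (-0.58), all lower in malignant cells. Over all genes 3313 of 16683 had an unadjusted edgeR p under 0.05, and DESeq2 called 2186. Of the 4 genes for turnover of the RAG proteins, through cyclin A and Cdk2 for RAG2 and through the VprBP ligase for RAG1, Vprbp was called higher in premalignant (0.76, edgeR adjusted p = 0.0127) and malignant (0.69, adjusted p = 0.0112) compared to wild type cells, and Skp2, Cdk2 and Ccna2 were not called. The numbers of all genes called higher against wild type were those given above. Between malignant and premalignant cells none of the 4 turnover genes was called by edgeR or DESeq2 or had an unadjusted p under 0.05.

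Of 21 transcription factors and regulators known to act on the Rag or Dntt loci, 12 were called lower and 1 higher in premalignant compared to wild type cells, where 20.3% of all genes were called lower (median log2 fold change -1.03 against -0.08 for all genes), and 15 lower and 1 higher in malignant compared to wild type cells, where 24.3% were called lower (median -1.31 against -0.02). Foxo1, an activator of Rag transcription in B cell precursors, stood at 311, 289, 84.2, 79.6, 76.9 and 87.7 CPM in wild type, premalignant and malignant replicates 1 and 2. It had fallen by 1.87 on the log2 scale in premalignant cells (edgeR adjusted p = 0.00159), with a log2 fold change of 0.01 from there to malignant cells (adjusted p = 0.988). Myb, also an activator, had log2 fold changes of -1.68 and -2.24, Ebf1 of -1.42 and -1.91 and Runx1 of -1.26 and -1.56 in premalignant and malignant compared to wild type cells.

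Lef1, which has been tied to Rag and Dntt expression in pro-B cells, stood at 114, 104, 47.3, 46.4, 1.07 and 10.3 CPM, the lowest value in the malignant library that also had the least Dntt, and was called in malignant (-4.31, edgeR adjusted p = 0.012) but not in premalignant cells (-1.22, adjusted p = 0.287) compared to wild type. Zfp608, a repressor of Rag expression in thymocytes, was the 1 regulator of the 21 called by edgeR between malignant and premalignant cells (-1.16, edgeR adjusted p = 0.0252). Over all genes 2.45% were called lower in this comparison and 6.18% in either direction. Of the 21 regulators, 8 had an unadjusted edgeR p under 0.05, beside 3313 of all 16683 genes, and DESeq2 called 6, beside 2186 genes in all. The repressor Gfi1b fell by 2.70 from wild type to malignant cells (adjusted p = 0.0911). The inhibitors of E proteins moved apart, with Id2 lower (-3.27 and -4.32) and Id3 higher (0.78 and 0.87) in premalignant and malignant compared to wild type cells, all 4 called. Foxp1, Ets1, Ikzf3 and Bcl11a were not called in any comparison.

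**Figure D5:**
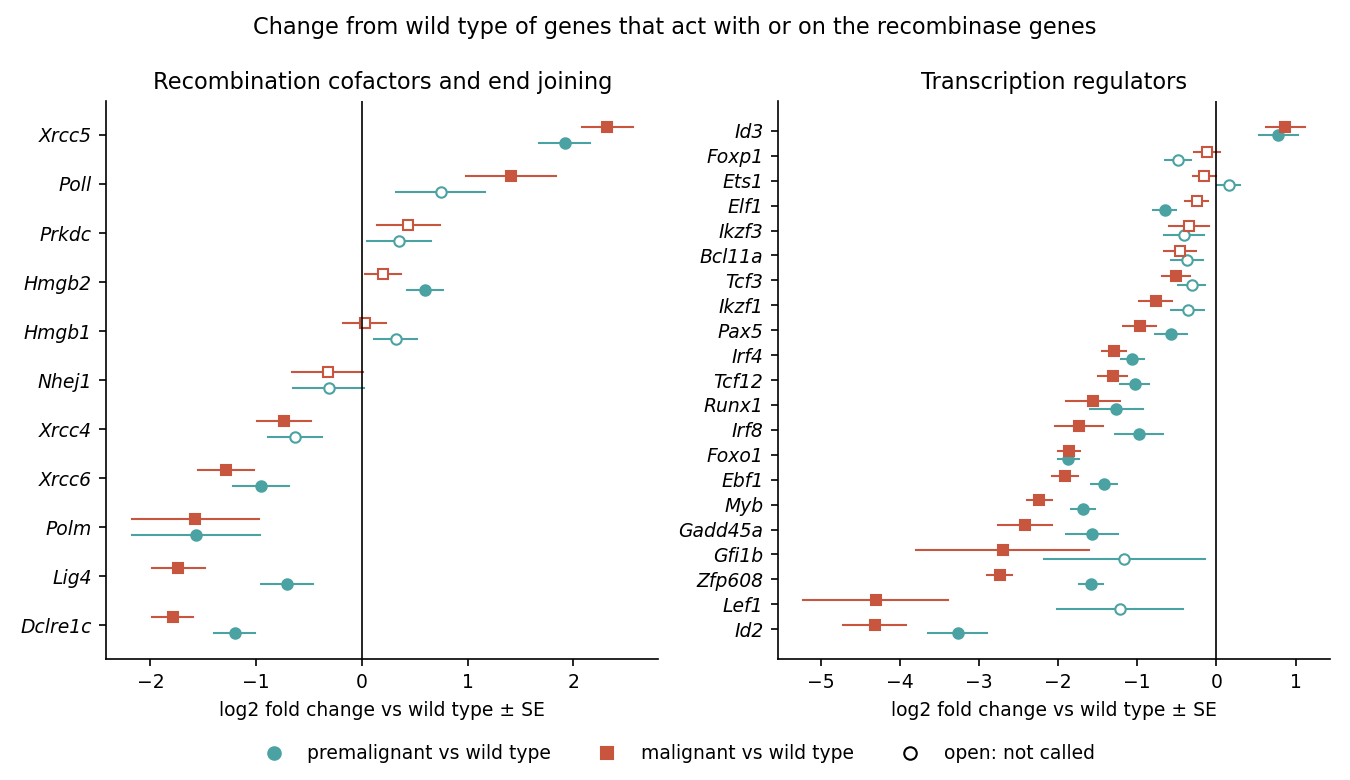
Log2 fold change with SE from wild type to premalignant (circles) and malignant cells (squares) for the cofactor and end-joining genes and for the transcription regulators, with open symbols where a gene was not called. Xrcc5 lies far right of 0 (2.32 in malignant cells) and Xrcc6 left of it (-1.28), and most regulators lie left of 0.

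Of 6 listed genes that RAG breaks are known to induce in pre-B cells, Pim2, Bcl3, Cd40 and Cd69 were called lower in both stages compared to wild type, with log2 fold changes in malignant cells of -2.38, -4.13, -1.40 and -3.85, beside 20.3% and 24.3% of all genes called lower in these comparisons. Swap70 and Spic were not called in any comparison, with log2 fold changes from wild type to malignant cells of 0.30 and -0.79. Pim2, a survival kinase, stood at 104 and 113 CPM in wild type, 31.6 and 28.6 CPM in premalignant, and 20.8 and 20.8 CPM in malignant cells. From premalignant to malignant cells edgeR called none of the 6, with a list median of 0.33, and DESeq2 called 2. At an unadjusted edgeR p under 0.05 stood 2, Pim2 lower (-0.53) and Swap70 higher (0.68) in malignant cells. Over all genes 3313 of 16683 had an unadjusted edgeR p under 0.05, and DESeq2 called 2186.

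Of the 7 B-lineage markers tested, 6 were called lower in premalignant and 5 in malignant compared to wild type cells. Over all genes 20.3% and 24.3% were called lower in these comparisons. Many, but not all, markers of stage within the gate were lower together with the recombinase genes. Kit, a pro-B marker, stood at 17.2, 14.0, 1.64, 0.813, 0.188 and 0.609 CPM in wild type, premalignant and malignant replicates 1 and 2. Il7r, the receptor for a growth factor of these cells, had log2 fold changes of -2.38 in premalignant and -3.65 in malignant compared to wild type cells. Of the 6 pro-B markers 5 were called lower in premalignant and 5 in malignant compared to wild type cells, beside 20.3% and 24.3% of all genes, while Spn was not called in any comparison. Their summed level lay between 1220 and 1355 CPM in wild type, 343 and 360 CPM in premalignant, and 256 and 433 CPM in malignant cells. All 4 large pre-B markers (Igll1, Vpreb1, Vpreb2 and Vpreb3) were called lower against wild type in both stages, with a summed level of 833 to 848 CPM, 252 to 260 CPM and 249 to 327 CPM. Most of this sum was Vpreb3, which made up 248.9 of 249.2 CPM in malignant replicate 1. From wild type to malignant cells Vpreb3 had a log2 fold change of -0.85. Those of Igll1, Vpreb1 and Vpreb2 were -5.73, -5.97 and -6.88. Of the 5 small pre-B markers 3 were called lower in premalignant cells, and 3 lower and 1 higher in malignant cells, both compared to wild type. Il2ra had log2 fold changes of -4.27 and -5.15 in premalignant and malignant compared to wild type cells. Cd2 stood at 75.3 and 97.2 CPM in wild type, 30.4 and 43.4 CPM in premalignant, and 200 and 130 CPM in malignant cells, and was called higher in malignant compared to wild type (0.94, edgeR adjusted p = 0.0356) and to premalignant cells (2.16, adjusted p = 0.0253). Ms4a1 had log2 fold changes of 0.62 in premalignant (not called) and -1.31 in malignant cells (called), and Ikzf3 was not called in any comparison. The summed small pre-B level was 1415 and 1633 CPM in wild type, 820 and 967 CPM in premalignant, and 901 and 768 CPM in malignant cells. The part of a shift in stage within the gate in the fall of the 3 genes was not tested.

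T-lineage cells also use the recombinase, and the levels of their 8 markers differed. Cd3e stood between 0 and 1.79 CPM in the 6 libraries, and Cd3d and Cd3g stood between 0.0953 and 3.35 CPM, while Cd4 was between 0.126 and 48.7 CPM. Lck stood at 53.3 and 40.0 CPM in wild type, 11.4 and 9.37 CPM in premalignant, and 11.9 and 64.1 CPM in malignant cells, and Cd8a at 8.54 and 5.63 CPM, 17.8 and 6.84 CPM, and 0.230 and 6.45 CPM in the same order. Cd8b1 and Cd247 lay between 0.323 and 7.33 CPM. The summed level of the 8 T-lineage markers was 131 and 81.9 CPM in wild type, 46.7 and 25.9 CPM in premalignant, and 15.5 and 76.5 CPM in malignant cells, and 5 of the 8 were called lower in each stage against wild type, beside 20.3% and 24.3% of all genes. Summed myeloid markers lay at 775 and 1703 CPM in wild type and between 55.3 and 248 CPM in the other 4 libraries, and summed erythroid markers at 293 and 1080 CPM and between 52.3 and 138 CPM. Wild type replicate 2, with the higher myeloid and erythroid sums, had the lower Rag1, Rag2 and Dntt of the wild type libraries. The part of other cell types in the values of the 3 genes was not tested.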

How the data were processed

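RNA of sorted pre-B cells was measured in 6 libraries, grouped by stage and numbered from the labels. The authors aligned 50-bp single-end reads with TopHat v2.0.8b, counted them with HTSeq and deposited raw counts per Ensembl gene; the submitters' processing notes also name CASAVA 1.8.2, Bowtie, DESeq and mm9, and the HTSeq options and gene annotation are not given in the sources used here. Both deposited DESeq tables hold the authors' own fold changes and p-values and were not used. Symbols, coordinates and exon lengths came from GENCODE vM1, which named 37205 of 37991 identifiers. Rag1, Rag2, Dntt and all gene lists were chosen with earlier results of these data known, and some genes of the lists are not reported here.

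Counts were tested with edgeR 4.0.16 in R 4.3.3 (quasi-likelihood, TMM, default filter on low counts, which left 16683 genes, all 6 libraries in 1 fit of the 3 stages), checked first on simulated counts. Calls needed a Benjamini-Hochberg adjusted p up to 0.1 and a log2 fold change of 0.5 or more in size. The SE was taken from the F statistic. No spike-in was analysed, so a change in total RNA per cell would not be seen. A count of 3 corresponded to 0.0526 to 0.108 CPM across libraries. Named genes were the 3 members, genes of the lists that were called or needed for a count, protein-coding genes within 250 kb and, for each member, the 5 genes nearest in log2(CPM + 0.5) profile. Alternatives were DESeq2 1.42.0, other scalings, filters, thresholds, a replicate block, fits of only the stages compared and leaving out each library.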

Additional observations from a re-analysis of the deposited data

How the results depend on the processing

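All 159 log2 fold changes of Rag1, Rag2 and Dntt under 18 alternatives kept their direction, and 137 stayed on the same side of the threshold. The alternatives that changed only the FDR or the minimum fold change reuse the reported fit. Their fold changes are therefore those reported and could not change direction. The calls of Rag1 between premalignant and wild type cells, and of all 3 genes between malignant and wild type cells, were kept in every alternative run; Dntt could not be fitted with at least 10 counts in every library, since it has 5 in malignant replicate 1. Between malignant and wild type cells the log2 fold changes ranged from -5.03 to -3.58 for Rag1, -3.76 to -2.17 for Rag2 and -11.1 to -5.17 for Dntt.

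At an FDR of 0.05 the premalignant calls of Rag2 (-1.41) and Dntt (-3.91) were lost. Leaving out 1 library each gave -1.79 to -0.88 for Rag2 and -4.48 to -3.50 for Dntt between premalignant and wild type cells. Between malignant and premalignant cells, no filter on low counts called all 3 genes (-1.55 for Rag1, -1.36 for Rag2 and -2.33 for Dntt), at least 10 counts in every library called Rag1 (-1.58), and DESeq2 called Rag1 (-1.58) and Rag2 (-1.40). Leaving out 1 library gave -2.44 to -1.03 for Rag1, -2.35 to -0.82 for Rag2 and -7.27 to -1.27 for Dntt. The cause of these moves was not tested.

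With the replicate block, Rag1 (-1.66, edgeR adjusted p = 0.0825) and Rag2 (-1.56, adjusted p = 0.0926) were called between malignant and premalignant cells, and no other call of the 3 genes changed. The block gave 6575, 940 and 8224 called genes against 6563, 1031 and 8212 in the comparisons of premalignant with wild type, malignant with premalignant and malignant with wild type cells. Deviations of same-numbered libraries correlated at 0.412 (wild type and premalignant), 0.128 (premalignant and malignant) and 0.0569 (wild type and malignant). What same-numbered libraries share beside the number is not given in the sources used here and was not tested.

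The count of 1031 genes called between malignant and premalignant cells was 2810 with no filter, 407 at an FDR of 0.05, 2186 with DESeq2 and 258 in a fit of only these stages. It ranged from 0 to 3805 when 1 library was left out, with 0 by edgeR without either premalignant library (1472 and 1777 genes at an unadjusted p under 0.05), 244 and 239 without a wild type library, and 2668 and 3805 without malignant replicates 1 and 2. The count of 6563 between premalignant and wild type cells was 4282 with a minimum log2 change of 1 and 2094 to 8455 when 1 library was left out, with 3285 without wild type replicate 2 and 2503 and 2094 without premalignant replicates 1 and 2. Called list members ranged from 2 to 8 (6 reported) and 4 to 9 (7) for end joining, 7 to 16 (13) and 12 to 18 (16) for regulators, and 1 to 5 (4) and 1 to 4 (3) for break sensing, in premalignant and malignant compared to wild type cells.

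Scaling by total counts only moved the median over all genes by -0.21 and -0.29 (log2) in premalignant and malignant compared to wild type cells and moved the split of calls from 3169 higher and 3394 lower to 2247 and 4438, and from 4153 and 4059 to 2957 and 5367. Upper-quartile scaling moved the split between malignant and premalignant cells from 623 higher and 408 lower to 487 and 492. With 2 libraries a stage and as few as 5 counts for Dntt, the level of Dntt in malignant cells is not settled by these data.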
